A study of Mus musculus with 20 samples.

Results

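The 28 genes described here make, sense and move cholesterol: 19 code for enzymes of cholesterol synthesis and its isoprenoid branch, 4 for the sterol sensor that controls those enzymes, and 5 for proteins of sterol transport, storage and uptake. They were found by gene symbol in the count tables of liver (15608 genes) and of eWAT, the white fat depot that lies on the epididymis (20738 genes). All 28 were present in both tables and passed the filter on low counts in each tissue, in which 12421 liver genes and 16476 eWAT genes were tested. The tissues came from 2-month-old male mice that were wild type (WT) or IR 4A, a genotype in which the insulin receptor is altered in its motif for binding MAD2, known from the spindle checkpoint and as a helper of receptor internalisation. With 5 poly-A libraries for each genotype in each tissue there were 4 groups and 20 libraries. The labels give no diet, fasting state, strain or animal for a library, and every p-value below rests on the spread among libraries, which may be technical. A count per gene does not show the altered receptor sequence, so the genotype labels were not checked from it. The comparison asked how the altered receptor goes with gene expression in each tissue.

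Cholesterol is built from acetyl-CoA in a long chain of reactions in the cytosol and endoplasmic reticulum. When membranes of the endoplasmic reticulum hold little sterol, SCAP carries the transcription factor SREBP2 (gene Srebf2) to the Golgi, where it is cut and released to switch on the enzymes of the chain. When sterol is plentiful, INSIG proteins hold SCAP back, and cholesterol that arrives in lysosomes is passed out by NPC2 and NPC1. Liver is a main site of cholesterol synthesis, and fat cells store a large pool of free cholesterol with little synthesis of their own.

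Promoters of these genes are known for short boxes that bind SREBP2 and its partner NF-Y, and the RefSeq promoter table (build GRCm38.p6, the 250 bases before the start of transcription) held 23 of the 28 members. Fdps, Fdft1, Sqle, Stard4 and Npc1 had no entry in it. Where a gene had more than 1 start, letters before any start were counted. On either strand, the CCAAT letters of an NF-Y site were found in 21 of 23 member promoters (91.3%), in 37.5% of 27025 promoters in the table and in 39.1% of 16227 promoters of genes in the count tables. Acat2 and Scap were the 2 members without them. The GC box letters GGGCGG were found in 20 of 23 (87%), against 35.4% and 50.2%. A GC box can share bases with a CCAAT box. The letters TCACNCCAC, a form of the sterol regulatory element, were found in 1 of 23 (4.35%), against 1.22% and 1.2%. That member was Hmgcs1. Variants of the element with other letters were not searched, and a match of letters is not evidence of binding. The promoters of 5 members are shown in the 5′ to 3′ direction of the gene, in lower case with the CCAAT letters of either strand (CCAAT or ATTGG) and the sterol element in capitals. Hmgcs1 (chr13:119690101-119690350, plus strand) is shown for its sterol element, Mvk (chr5:114444019-114444268, plus strand) for holding the most CCAAT letters (5 copies), and Idi1 (chr13:8885356-8885605, plus strand) and Cyp51 (chr5:4104698-4104947, minus strand) as abundant liver enzymes with 2 copies and 1 copy. Insig1 (chr5:28071162-28071411, plus strand), with 1 copy, is shown because its values in the liver libraries differ from those of the enzymes.
Hmgcs1: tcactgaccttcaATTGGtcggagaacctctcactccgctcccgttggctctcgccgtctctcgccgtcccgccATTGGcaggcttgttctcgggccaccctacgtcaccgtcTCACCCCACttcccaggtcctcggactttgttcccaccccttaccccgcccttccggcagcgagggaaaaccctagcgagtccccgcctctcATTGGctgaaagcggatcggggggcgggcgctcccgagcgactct
Mvk: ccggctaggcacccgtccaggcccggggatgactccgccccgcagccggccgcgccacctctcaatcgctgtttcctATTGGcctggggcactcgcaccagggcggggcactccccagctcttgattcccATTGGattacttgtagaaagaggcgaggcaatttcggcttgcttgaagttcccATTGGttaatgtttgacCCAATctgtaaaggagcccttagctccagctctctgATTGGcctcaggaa
Idi1: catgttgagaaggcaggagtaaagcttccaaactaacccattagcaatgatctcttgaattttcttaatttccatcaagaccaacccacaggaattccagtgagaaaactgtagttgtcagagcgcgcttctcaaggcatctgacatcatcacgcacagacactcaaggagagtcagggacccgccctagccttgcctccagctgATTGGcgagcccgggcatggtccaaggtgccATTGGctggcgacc
Cyp51: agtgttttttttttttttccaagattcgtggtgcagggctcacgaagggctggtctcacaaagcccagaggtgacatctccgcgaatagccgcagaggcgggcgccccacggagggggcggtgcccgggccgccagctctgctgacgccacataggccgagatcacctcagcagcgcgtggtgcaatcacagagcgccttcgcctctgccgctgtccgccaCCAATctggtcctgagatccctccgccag
Insig1: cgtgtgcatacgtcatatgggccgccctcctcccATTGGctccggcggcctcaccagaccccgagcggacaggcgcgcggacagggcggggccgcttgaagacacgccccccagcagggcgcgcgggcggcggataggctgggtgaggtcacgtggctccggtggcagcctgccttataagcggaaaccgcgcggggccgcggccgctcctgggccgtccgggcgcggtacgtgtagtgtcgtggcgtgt

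Several libraries stood apart within their group. Total counts ran from 17989420 to 24238359 in liver and from 13651874 to 21615358 in eWAT. In liver, 14 acute phase genes, made by hepatocytes in inflammation, had a mean log2 CPM of 11.13 in WT 1 and 9.99 in WT 3, while the other 8 liver libraries lay between 6.50 and 8.27. The summed level of 8 hepatocyte markers was 67950 to 75700 CPM in WT and 66660 to 80470 CPM in IR 4A liver, and none was at 0. In eWAT, all 10 adipocyte markers were present, with a summed level of 8349 to 28750 CPM in WT and 2574 to 14530 CPM in IR 4A. RNA of the epididymis was present in every eWAT library: the summed level of 8 markers of its epithelium was 4771 to 17100 CPM in WT and 16870 to 24350 CPM in IR 4A. WT 4 had the lowest value, with 3 of the 8 markers under 1 CPM, and it had the highest adipocyte level. Other epididymis markers were abundant in WT 4, with Crisp1 at 2955, Adam7 at 1198 and Lcn5 at 596 CPM. The mean log2 CPM of 10 sperm and testis markers was 7.56 in eWAT WT 1, 9.27 in WT 2, 7.67 in IR 4A 3 and 8.09 in IR 4A 4, and 3.25 to 6.12 in the other 6 eWAT libraries. For results that rest on WT 1 and WT 3 in liver or on WT 4 in eWAT, values without those libraries are given too. In bulk tissue, fewer cells of a type and less RNA per cell cannot be told apart.

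In WT mice the pathway was far more abundant in liver than in eWAT. CPM are a gene's counts relative to its library's total, the total being scaled by TMM (trimmed mean of M values, which sets a common scale for libraries), here over both tissues, and differences are log2, eWAT minus liver. By edgeR's quasi-likelihood test with Benjamini-Hochberg adjusted p under 0.05, 22 of 28 members were lower in WT eWAT and 4 were higher, when 33.9% and 43.2% of 14696 genes were lower and higher. The median difference was -2.21 over the members and 0.19 over all genes. Upper-quartile scaling moved these medians to -1.94 and 0.465, so a difference is best read against the median of all genes. Without liver WT 1 and WT 3 and eWAT WT 4, 22 members were lower and 5 were higher by edgeR (34.5% and 39.5% of genes), with a median of -1.74 over the members. Fat and epididymis RNA both enter the eWAT value.

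Among the members lower in eWAT, the 5 widest gaps were those of Dhcr7, Idi1, Hsd17b7, Sc5d and Msmo1. Dhcr7, which makes cholesterol from 7-dehydrocholesterol, was at 5.14 ± 0.93 CPM in WT eWAT against 135 ± 47.5 CPM in WT liver (SD, n = 5 each), a log2 difference of -4.71 (SE 0.21, adjusted p = 2.05e-13) by edgeR. Idi1, which isomerises isopentenyl diphosphate to its dimethylallyl form, was at 29.1 ± 7.39 CPM in WT eWAT against 497 ± 209.8 CPM in WT liver, a difference of -4.10. Hsd17b7, a 3-ketosterol reductase, differed by -4.07, Sc5d, a sterol desaturase, by -3.56, and Msmo1, which begins the removal of the C4 methyl groups of lanosterol, by -3.26. Apart from Idi1 these are enzymes after lanosterol, but others of that stretch differed by less: Ebp by -3.25, Cyp51, the lanosterol demethylase, by -2.69, Tm7sf2, a sterol reductase, by -2.37 and Nsdhl, which acts with Msmo1 and Hsd17b7 on the C4 methyl groups, by -1.33.

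Enzymes of the earlier steps were also lower in eWAT. Hmgcs1, which makes HMG-CoA from acetoacetyl-CoA, differed by -2.33, and the farnesyl diphosphate synthase gene Fdps by -2.75. Squalene epoxidase, Sqle, differed by -2.32, and lanosterol synthase, Lss, by -1.64. Squalene synthase, Fdft1, differed by -1.20 and the kinases Mvk and Pmvk by -1.54 and -1.04. Without liver WT 1 and WT 3 some of these gaps narrowed, that of Hmgcs1 to -1.51, of Sqle to -1.84, of Mvk to -0.94 and of Fdft1 to -0.74, and each still passed by edgeR. The transport genes Stard4, which carries sterol through the cytosol, and Npc1, which exports it from lysosomes, differed by -3.17 and -3.03.

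The 4 members higher in eWAT were Npc2, Soat1, Mylip and Ggps1. Npc2, the soluble lysosomal partner of NPC1, was at 612 ± 75.8 CPM in WT eWAT against 57.1 ± 5.69 CPM in WT liver, a difference of 3.42 (SE 0.16, adjusted p = 7.04e-13) by edgeR. Soat1, which esterifies cholesterol for storage, was at 28.7 ± 3.28 CPM in WT eWAT against 3.37 ± 0.85 CPM in WT liver, and Mylip, a ubiquitin ligase that lowers lipoprotein receptors, at 48.1 ± 11.0 CPM in WT eWAT against 10.2 ± 3.26 CPM in WT liver. Ggps1, the branch enzyme that makes geranylgeranyl diphosphate, differed by 0.74. Acat2, the cytosolic thiolase that opens the pathway, and Srebf2 did not pass (0.17 (SE 0.15, adjusted p = 0.315) and -0.14 (SE 0.16, adjusted p = 0.422) by edgeR), and the sign of Srebf2 turned to 0.14 under upper-quartile scaling. Acat2 passed in 4 settings, with its highest value, 0.45 (SE 0.13, adjusted p = 0.00602 by edgeR), without liver WT 1 and WT 3. Since epididymis RNA was present in eWAT, its part in the high Npc2 value was not tested.

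**Figure D1:**
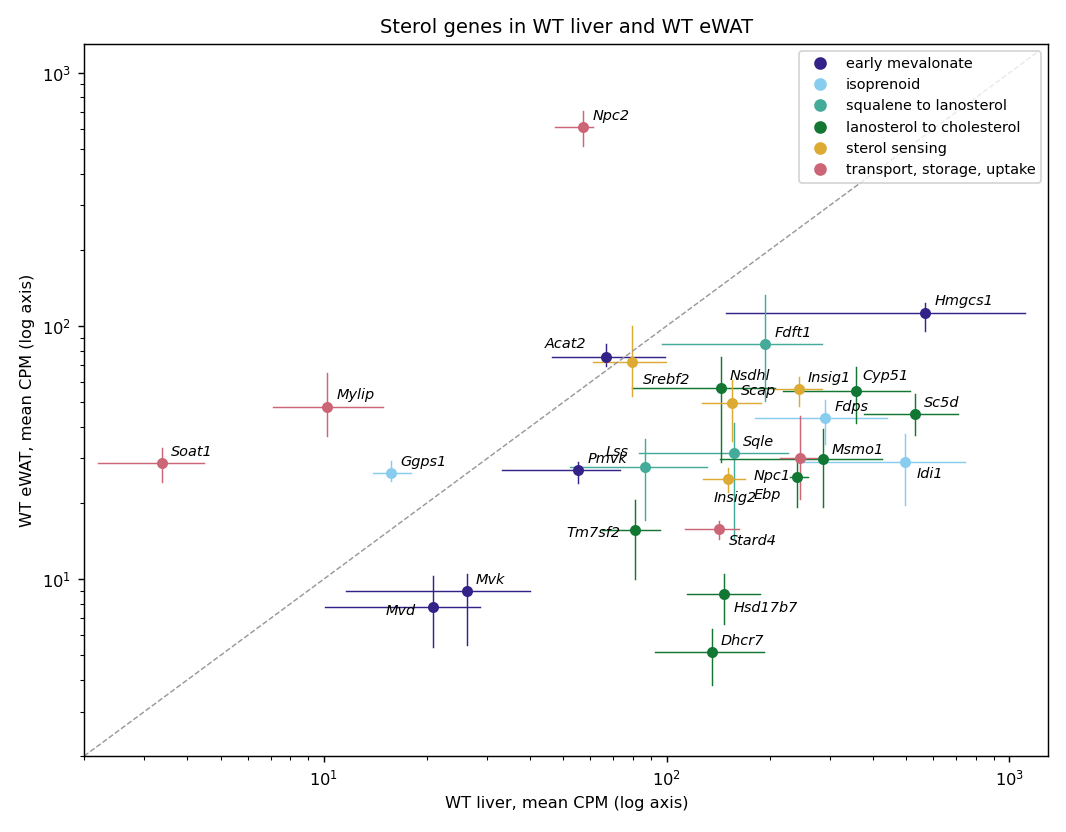
Mean CPM of each of the 28 sterol genes in WT liver (x, log axis) and WT eWAT (y, log axis), coloured by role, with lines from the lowest to the highest of 5 libraries and a dashed line of equality. Npc2, Soat1, Mylip and Ggps1 lie above the dashed line, Acat2 and Srebf2 lie near it, and the other 22 lie below it.

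Compared per length (CPM per kilobase of the longest coding transcript in GENCODE M21), WT liver held most transcripts of Fdps (127), Idi1 (99.7) and Hmgcs1 (99.4), followed by Msmo1 (84.9) and Ebp, the sterol isomerase (83.6). Mvk, the mevalonate kinase (9.53), and Mvd, the decarboxylase that ends the mevalonate steps (7.18), were the least abundant enzymes of the main chain, and Ggps1 was at 2.25. In WT eWAT the per-length level of Npc2 was 282, far above Acat2 (50.8), Hmgcs1 (49.6) and Fdps (47.5). Dhcr7 (2.78) and Hsd17b7 (2.89) were the lowest members there. Order among neighbours was not tested, since the length in use depends on the isoform.

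In liver, no member differed between IR 4A and WT past the threshold. Of the 19 enzymes, 13 had a negative log2 fold change, and all 5 genes of transport, storage and uptake had a positive one. The sterol sensor was mixed. By edgeR, 0 of 28 members passed an adjusted p of 0.05 (0.00805% of liver genes did, 1 gene), and 3 were higher and 3 lower at an unadjusted p under 0.05, against 8.6% and 9.48% of all liver genes. DESeq2 called 2 members higher (Npc1 and Npc2) and 0 lower, against 1.61% and 1.82% of genes. The median change was -0.21 over the members and 0.0048 over all genes. In liver 1 member lay in groups that do not overlap, higher in IR 4A (1.68% of genes), and 0 lay lower (1.83%).

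Hmgcs1 showed the widest spread of any member in liver, with 460.2, 227, 668, 277 and 90.1 CPM in WT libraries 1 to 5 and 307, 178, 138, 213 and 214 CPM in IR 4A libraries 1 to 5. WT 3 and WT 1 held the highest values of all 10 libraries and WT 5 the lowest, so the IR 4A values fell inside the WT range. The log2 fold change was -0.71 (SE 0.41, unadjusted p = 0.109, adjusted p = 0.382) by edgeR. The other genes of the early mevalonate steps were split: Mvk was at 15.8 ± 7.71 CPM (WT) against 11.0 ± 1.69 CPM (IR 4A) (SD, n = 5 each), a log2 fold change of -0.53 (SE 0.29), and Mvd was at 12.6 ± 4.24 CPM (WT) against 8.55 ± 3.54 CPM (IR 4A), a change of -0.56 (SE 0.29). Acat2 and Pmvk, the phosphomevalonate kinase, had changes of 0.045 (SE 0.17) and 0.12 (SE 0.19).

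Among the isoprenoid enzymes, Idi1 was at 302 ± 126 CPM (WT) against 216 ± 57.0 CPM (IR 4A) and Fdps at 176 ± 65.7 CPM (WT) against 138 ± 34.2 CPM (IR 4A). Their log2 fold changes were -0.48 (SE 0.27) and -0.35 (SE 0.24), while Ggps1, whose product goes to protein prenylation, was at 0.051 (SE 0.11). All 3 genes from squalene to lanosterol had lower means in IR 4A. Sqle, a rate-limiting enzyme of the pathway, had 136, 66.0, 134, 90.4 and 50.0 CPM in WT libraries 1 to 5 and 94.5, 56.9, 37.1, 52.7 and 61.3 CPM in IR 4A libraries 1 to 5. WT 1 and WT 3 were the highest, and IR 4A 3 was below every WT library, but the groups overlapped. Its log2 fold change was -0.66 (SE 0.29, unadjusted p = 0.0447, adjusted p = 0.266) by edgeR. Fdft1 and Lss had changes of -0.33 (SE 0.24) and -0.30 (SE 0.22).

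Of the 8 enzymes from lanosterol to cholesterol, 5 had lower means in IR 4A. Hsd17b7 had 113, 69.8, 107, 81.0 and 76.3 CPM in WT libraries 1 to 5 and 85.9, 61.6, 40.5, 59.4 and 60.5 CPM in IR 4A libraries 1 to 5. It had the lowest unadjusted p of the enzymes, and its log2 fold change was -0.54 (SE 0.19, unadjusted p = 0.0136, adjusted p = 0.185) by edgeR. Cyp51, the lanosterol demethylase, was at 216 ± 79.2 CPM (WT) against 149 ± 43.8 CPM (IR 4A), a change of -0.54 (SE 0.26), and Nsdhl, which takes part in removing the C4 methyl groups, was at 87.2 ± 32.2 CPM (WT) against 62.1 ± 11.0 CPM (IR 4A), a change of -0.49 (SE 0.23). Msmo1 and Dhcr7 had changes of -0.24 (SE 0.25) and -0.34 (SE 0.19). Ebp and Sc5d were nearly level, at 0.025 (SE 0.067) and 0.02 (SE 0.14), and Tm7sf2, a sterol reductase, was at 0.18 (SE 0.11).

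Within the sterol sensor, Srebf2 had 60.2, 45.2, 57.3, 38.0 and 40.1 CPM in WT libraries 1 to 5 and 42.2, 38.4, 32.0, 36.4 and 38.6 CPM in IR 4A libraries 1 to 5. WT 1 and WT 3 were again the highest, and the log2 fold change was -0.36 (SE 0.13, unadjusted p = 0.0186, adjusted p = 0.204) by edgeR. Insig1, itself a target of SREBP2, went the other way, with 146, 173, 148, 149 and 123 CPM in WT libraries 1 to 5 and 162, 169, 162, 189.8 and 214 CPM in IR 4A libraries 1 to 5. The groups overlapped, and the change was 0.28 (SE 0.11, unadjusted p = 0.0223, adjusted p = 0.216) by edgeR. Insig2 and Scap had changes of -0.18 (SE 0.10) and 0.046 (SE 0.12).

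The clearest values in liver were those of the lysosomal exporters. Npc2 had 34.8, 37.1, 36.1, 29.3 and 36.0 CPM in WT libraries 1 to 5 and 39.7, 43.5, 47.1, 44.8 and 40.2 CPM in IR 4A libraries 1 to 5. Every IR 4A library exceeded every WT library. The log2 fold change was 0.31 (SE 0.081, unadjusted p = 0.00229, adjusted p = 0.128) by edgeR. Npc1 had 129, 172, 143, 157 and 145 CPM in WT libraries 1 to 5 and 164, 173, 206, 198 and 210.2 CPM in IR 4A libraries 1 to 5, with WT 2 inside the IR 4A range, and a change of 0.35 (SE 0.10, unadjusted p = 0.00412, adjusted p = 0.144) by edgeR. DESeq2 gave adjusted p of 0.033 for Npc2 and 0.038 for Npc1. In the authors' deposited table the adjusted p of Npc2 was 0.0504 and that of Npc1 was 0.191, and 0 of 28 members passed in liver (1.16% of genes higher and 1.33% lower). Soat1, at 1.36 to 2.69 CPM (WT) and 1.25 to 4.19 CPM (IR 4A), had a change of 0.51 (SE 0.31), and Stard4 and Mylip of 0.16 (SE 0.14) and 0.12 (SE 0.23). In the authors' deposited table the change of Soat1 was 1.14 and that of Ggps1 was -0.17, and Ggps1 was the 1 member of 28 whose sign differed there in liver.

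**Figure D2:**
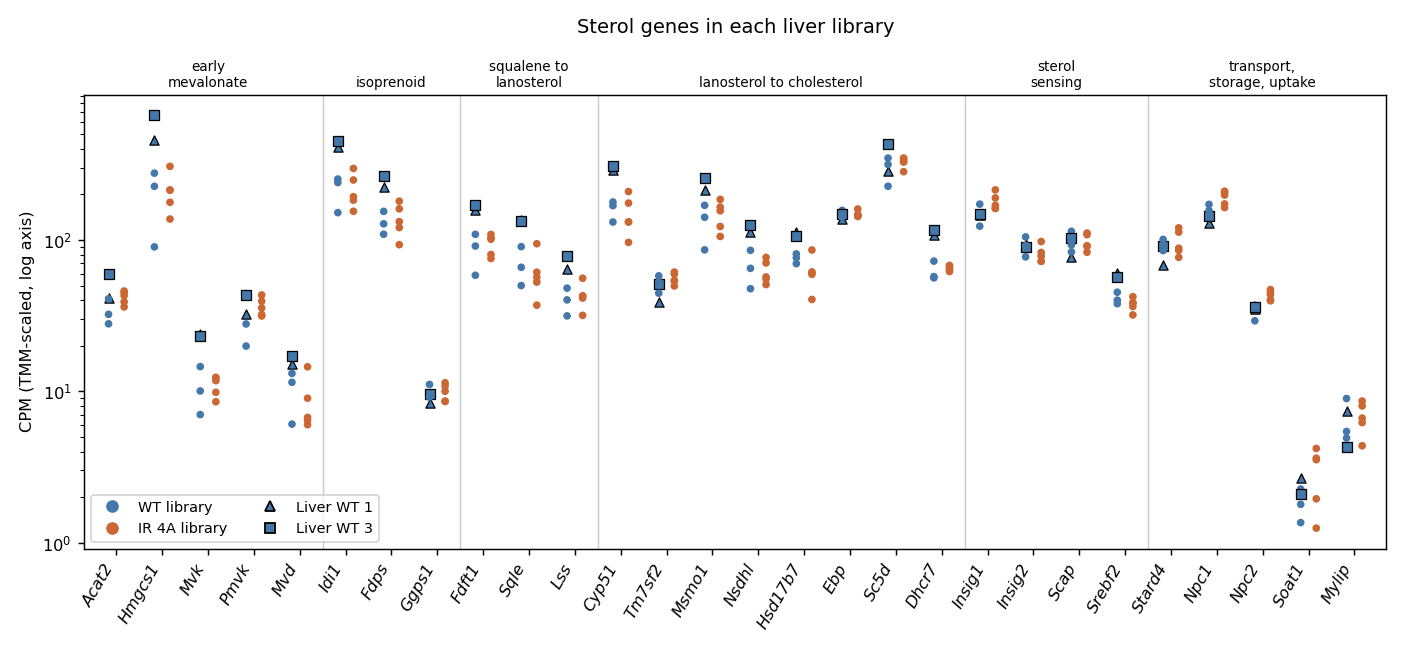
CPM (TMM-scaled, log axis) of the 28 sterol genes in each of 10 liver libraries, WT in blue and IR 4A in orange, with WT 1 as triangles and WT 3 as squares. WT 1 and WT 3 sit at the top of most enzymes, for Hmgcs1 at 460.2 and 668 CPM, and Npc2 is the member whose groups do not overlap.

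The low enzyme values in IR 4A liver rested on WT 1 and WT 3, the libraries high in acute phase genes. WT 3 was the highest WT library for 12 of 19 enzymes and among the top 2 for 18, and WT 1 was among the top 2 for 14. WT 5 was the lowest for 15. The ratio of the highest to the lowest WT library had a median of 2.42 over the enzymes and reached 7.42 for Hmgcs1, while over 10078 liver genes of at least the mean of the lowest member it was 1.42. In IR 4A the enzymes' median ratio was 1.51, and over the same 10078 genes it was 1.29. The libraries also kept an order within IR 4A, where library 1 was the highest for 11 of 19 enzymes and library 3 the lowest for 13. Sterol sensing and transport genes were steadier, with median WT ratios of 1.44 and 1.48.

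Without WT 1 and WT 3, 13 of 19 enzymes had a positive change in place of 6, and the enzymes' median went from -0.34 to 0.067. Hmgcs1 went from -0.71 to 0.086, Mvk from -0.53 to 0.055 and Idi1 from -0.48 to 0.0044. Of the 13 enzymes with a negative change, 5 kept their sign: Hsd17b7 at -0.30, Mvd at -0.26, Sqle at -0.19, Cyp51 at -0.10 and Nsdhl at -0.091. Srebf2 kept its sign too, at -0.13, and 0 members were lower at an unadjusted p under 0.05 (5.98% of genes). Npc2 (0.33), Npc1 (0.27) and Acat2 (0.31) were then the 3 higher at that level (6.78% of genes). The groups of Npc2 still did not overlap. WT 5, the lowest WT library for 15 of 19 enzymes, remained in the comparison without WT 1 and WT 3. Leaving out WT 5 alone moved enzyme values the other way, Hmgcs1 to -0.96, Mvk to -0.72, Idi1 to -0.65 and Fdft1 to -0.50. These had adjusted p from 0.172 to 0.204 by edgeR. The acute phase genes were lower in IR 4A for 14 of 14 genes (median -1.51), and for 12 of 14 without WT 1 and WT 3 (median -0.245), and their part in the enzyme values was not tested.

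**Figure D3:**
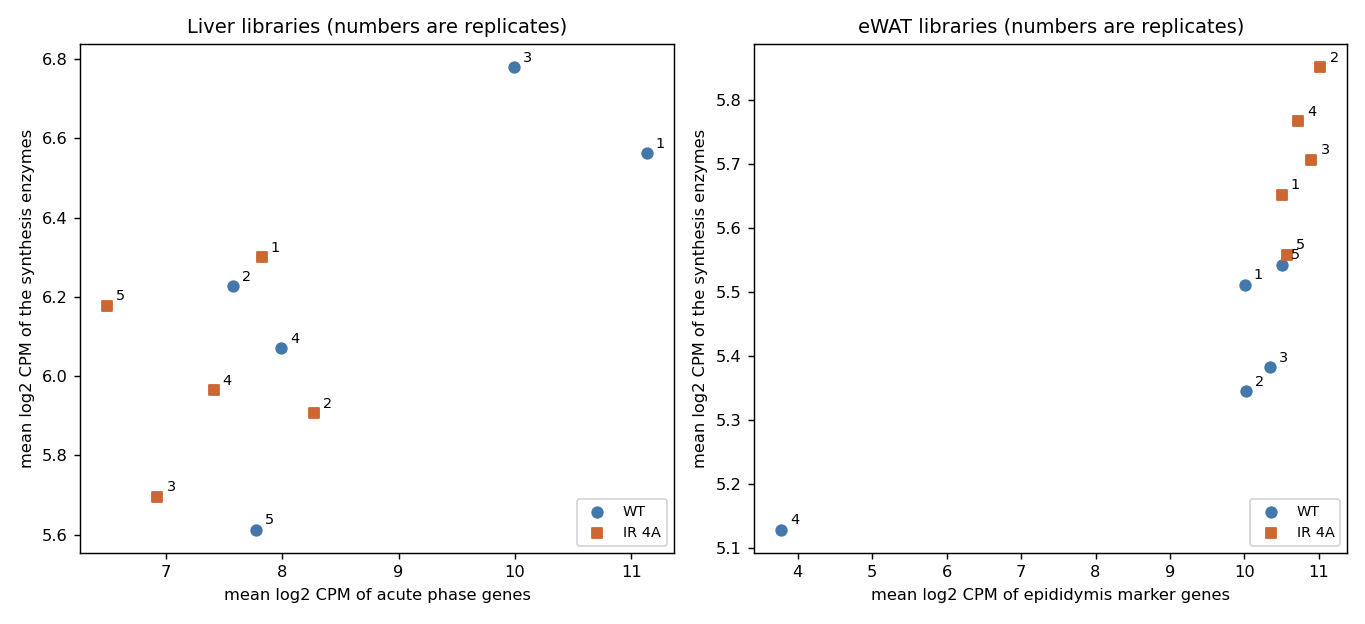
Mean log2 CPM of the 19 synthesis enzymes (y) in each library against the mean log2 CPM of 14 acute phase genes in liver (left) and of 8 epididymis markers in eWAT (right), with WT as blue circles, IR 4A as orange squares and replicate numbers beside the points. Liver WT 1 and WT 3 are highest on both axes, and eWAT WT 4 is lowest on both.

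In eWAT the enzymes lay the other way. Of 19 enzymes, 16 had a positive change, and 3 of 4 genes of the sterol sensor did, while Insig2 was lower. No member passed the threshold by edgeR: 0 of 28 at an adjusted p of 0.05 (0.0121% of eWAT genes did, 2 genes). At an unadjusted p under 0.05, 9 members were higher, when 6.63% of eWAT genes were, and 1 was lower, when 9.24% were. Groups did not overlap for 3 members higher in IR 4A (2.52% of genes) and 1 lower (3.22%). DESeq2 called 5 members higher (Acat2, Fdps, Tm7sf2, Msmo1 and Insig1) and 1 lower (Insig2), against 3.18% and 4.14% of genes. In the authors' deposited table, 3 members were higher at an adjusted p under 0.05 (0.967% of genes) and 0 were lower (1.74%). The median change was 0.30 over the members and -0.083 over all genes.

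Among the early genes, Acat2 had 113, 105, 113, 112 and 129 CPM in WT libraries 1 to 5 and 135, 175, 165, 145 and 126 CPM in IR 4A libraries 1 to 5. IR 4A 5 lay inside the WT range, and the log2 fold change was 0.39 (SE 0.10, unadjusted p = 0.00431, adjusted p = 0.203) by edgeR. Mvk had 14.4, 8.29, 14.9, 16.4 and 14.2 CPM in WT libraries 1 to 5 and 18.2, 16.6, 16.7, 16.4 and 16.9 CPM in IR 4A libraries 1 to 5. All 5 IR 4A values were above all 5 WT values by a narrow margin, WT 2 stood well below the rest, and the change was 0.31 (SE 0.17, unadjusted p = 0.0956, adjusted p = 0.394) by edgeR. Mvd had 12.2, 11.0, 11.5, 8.45 and 15.6 CPM in WT libraries 1 to 5 and 13.3, 19.2, 20.4, 21.4 and 13.7 CPM in IR 4A libraries 1 to 5, with a change of 0.58 (SE 0.20, unadjusted p = 0.0166, adjusted p = 0.242) by edgeR. Pmvk and Hmgcs1 had changes of 0.12 (SE 0.10) and -0.10 (SE 0.10), so the enzyme that spread most in liver was nearly level in eWAT, at 145 to 185 CPM (WT) and 138 to 175 CPM (IR 4A).

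Fdps had the smallest p of any member in eWAT. Its values were 76.7, 57.7, 70.1, 53.4 and 69.9 CPM in WT libraries 1 to 5 and 88.2, 90.1, 104, 93.1 and 83.4 CPM in IR 4A libraries 1 to 5. The groups did not overlap, and the log2 fold change was 0.48 (SE 0.11, unadjusted p = 0.00156, adjusted p = 0.173) by edgeR. The authors' deposited table gives 0.51 with an adjusted p of 0.0105. A predicted gene, Gm43738, shares exon sequence with Fdps on the same strand in GENCODE M21, so its counts may be split. Idi1 was at 44.1 ± 10.9 CPM (WT) against 56.9 ± 6.74 CPM (IR 4A), a change of 0.37 (SE 0.17), and Ggps1 was at -0.14 (SE 0.12). Lss had a change of 0.49 (SE 0.19, unadjusted p = 0.0251, adjusted p = 0.26) by edgeR, at 26.8 to 54.5 CPM (WT) and 47.9 to 73.6 CPM (IR 4A). Sqle and Fdft1 had changes of 0.37 (SE 0.24) and 0.20 (SE 0.24), with the lowest value of each in WT 4.

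The largest change among the members in eWAT was that of Tm7sf2, with 26.5, 19.0, 26.3, 15.7 and 31.1 CPM in WT libraries 1 to 5 and 31.2, 41.8, 43.9, 36.6 and 37.9 CPM in IR 4A libraries 1 to 5. The lowest IR 4A value lay just above the highest WT value. The log2 fold change was 0.69 (SE 0.19, unadjusted p = 0.00441, adjusted p = 0.203) by edgeR, and the authors' deposited table gives 0.75 with an adjusted p of 0.0167. Tm7sf2 shares exon sequence with Vps51 on the same strand, and its counts may be split with that gene. Msmo1 had 51.2, 40.8, 44.5, 30.2 and 59.7 CPM in WT libraries 1 to 5 and 61.4, 79.2, 63.8, 71.2 and 57.8 CPM in IR 4A libraries 1 to 5, with IR 4A 5 inside the WT range and a change of 0.56 (SE 0.17, unadjusted p = 0.00938, adjusted p = 0.228) by edgeR. In the authors' deposited table its adjusted p was 0.0493. Hsd17b7 had a change of 0.41 (SE 0.16, unadjusted p = 0.0267, adjusted p = 0.264) by edgeR, at 10.4 to 15.9 CPM (WT) and 14.2 to 21.1 CPM (IR 4A). Nsdhl, Cyp51, Dhcr7 and Ebp had changes of 0.49 (SE 0.24), 0.28 (SE 0.13), 0.25 (SE 0.16) and 0.14 (SE 0.12), and Sc5d of -0.051 (SE 0.14).

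The INSIG genes parted in eWAT. Insig1 had 87.8, 73.1, 82.9, 97.9 and 87.3 CPM in WT libraries 1 to 5 and 109, 123, 105, 113 and 97.3 CPM in IR 4A libraries 1 to 5, with 1 IR 4A library inside the WT range, and a log2 fold change of 0.35 (SE 0.094, unadjusted p = 0.00423, adjusted p = 0.203) by edgeR. Insig2, the form less tied to SREBP2, had 41.2, 37.7, 34.9, 41.8 and 33.5 CPM in WT libraries 1 to 5 and 31.8, 29.3, 20.7, 24.2 and 32.2 CPM in IR 4A libraries 1 to 5. Every IR 4A library was below every WT library. Its change was -0.45 (SE 0.14, unadjusted p = 0.00828, adjusted p = 0.222) by edgeR. Srebf2 had 115, 83.8, 114, 82.4 and 152 CPM in WT libraries 1 to 5 and 142, 157, 135, 156 and 144 CPM in IR 4A libraries 1 to 5, with WT 5 inside the IR 4A range and a change of 0.42 (SE 0.16, unadjusted p = 0.0262, adjusted p = 0.263) by edgeR. Scap was at 75.8 ± 14.3 CPM (WT) against 91.8 ± 5.39 CPM (IR 4A), a change of 0.28 (SE 0.13).

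The transport genes did not share a direction in eWAT. Npc2 was at 930.5 ± 112 CPM (WT) against 1221 ± 307 CPM (IR 4A), a change of 0.39 (SE 0.18), and IR 4A 2 and IR 4A 3 had the highest values, 1478 and 1583 CPM. Npc1 was at 45.9 ± 14.1 CPM (WT) against 36.5 ± 7.35 CPM (IR 4A), a change of -0.33 (SE 0.22) that became -0.13 without WT 4. Stard4, Soat1 and Mylip had changes of 0.051 (SE 0.11), -0.045 (SE 0.17) and -0.15 (SE 0.21).

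**Figure D4:**
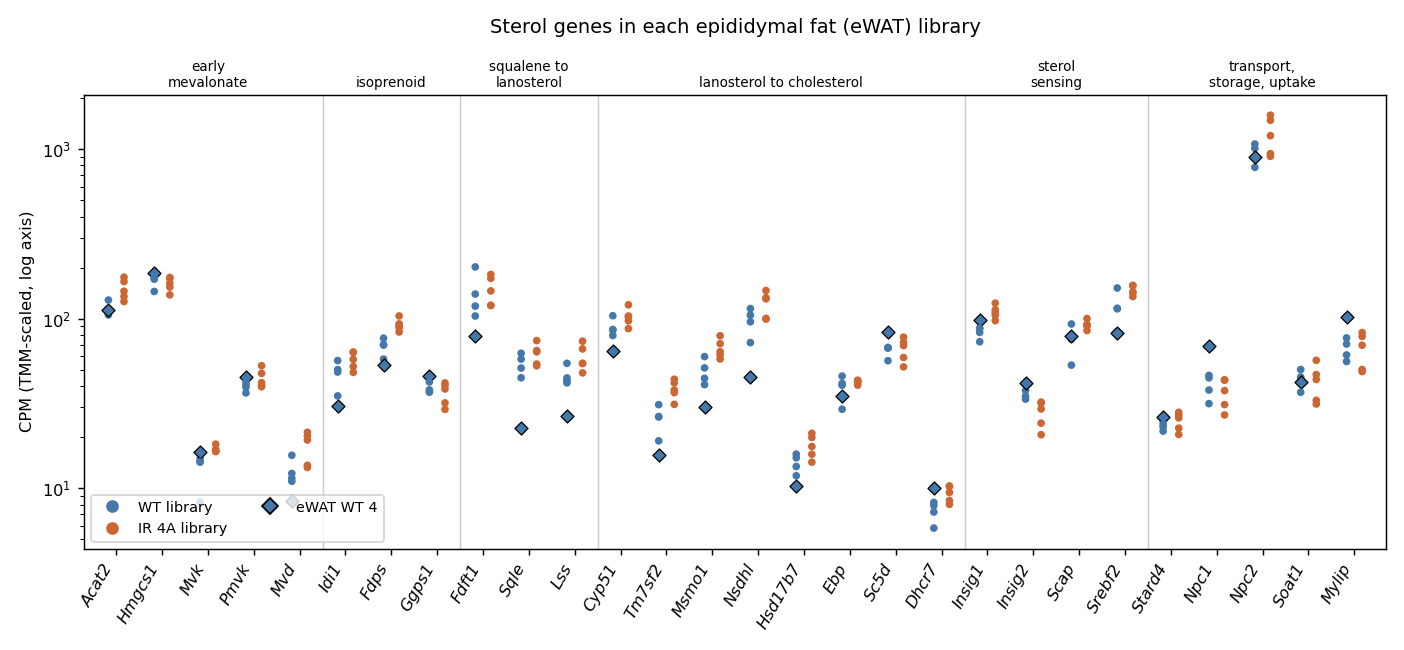
CPM (TMM-scaled, log axis) of the 28 sterol genes in each of 10 eWAT libraries, WT in blue and IR 4A in orange, with WT 4 as diamonds. IR 4A lies above WT with no overlap for Mvk, Fdps and Tm7sf2 and below it for Insig2, and WT 4 is the lowest WT library for 11 of 19 enzymes.

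Markers of cell types also differed in sign between the genotypes in eWAT. All 8 epididymis markers were higher in IR 4A by their log2 fold change (median 0.76). Of the others, 0 of 10 adipocyte markers (median -0.88), 0 of 9 tested macrophage markers (median -1.46) and 0 of 8 progenitor markers (median -0.86) were. Groups did not overlap for 3 epididymis markers, higher in IR 4A (2.52% of genes). They did not overlap for 0 adipocyte, 5 macrophage and 2 progenitor markers, lower in IR 4A (3.22%). At an unadjusted p under 0.05 by edgeR, 1 epididymis marker was higher (6.63% of genes). At that level 0 adipocyte, 8 macrophage and 5 progenitor markers were lower (9.24%). With WT 4 left out, 4 epididymis markers were higher at that level (6.26% of genes), and their median was 0.534. Lower were then 0 adipocyte, 7 macrophage and 4 progenitor markers (5.41%), with medians of -0.471, -1.21 and -0.628. WT 4, the library lowest in the summed epididymis markers, was the lowest WT library for 11 of 19 enzymes. Without WT 4, 17 of 19 enzymes had a positive change (median 0.33), with 8 members higher at an unadjusted p under 0.05 (6.26% of genes) and 1 lower (5.41%). Fdps was then at 0.42, Tm7sf2 at 0.57, Msmo1 at 0.44 and Insig2 at -0.41. Without the 4 libraries high in sperm markers, 17 of 19 enzymes were positive (median 0.36), and 4 members (Cyp51, Idi1, Fdps and Insig1) were higher at that level (2.87% of genes) and 0 lower (5.49%). The part of epididymis RNA in the eWAT values was not tested.

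**Figure D5:**
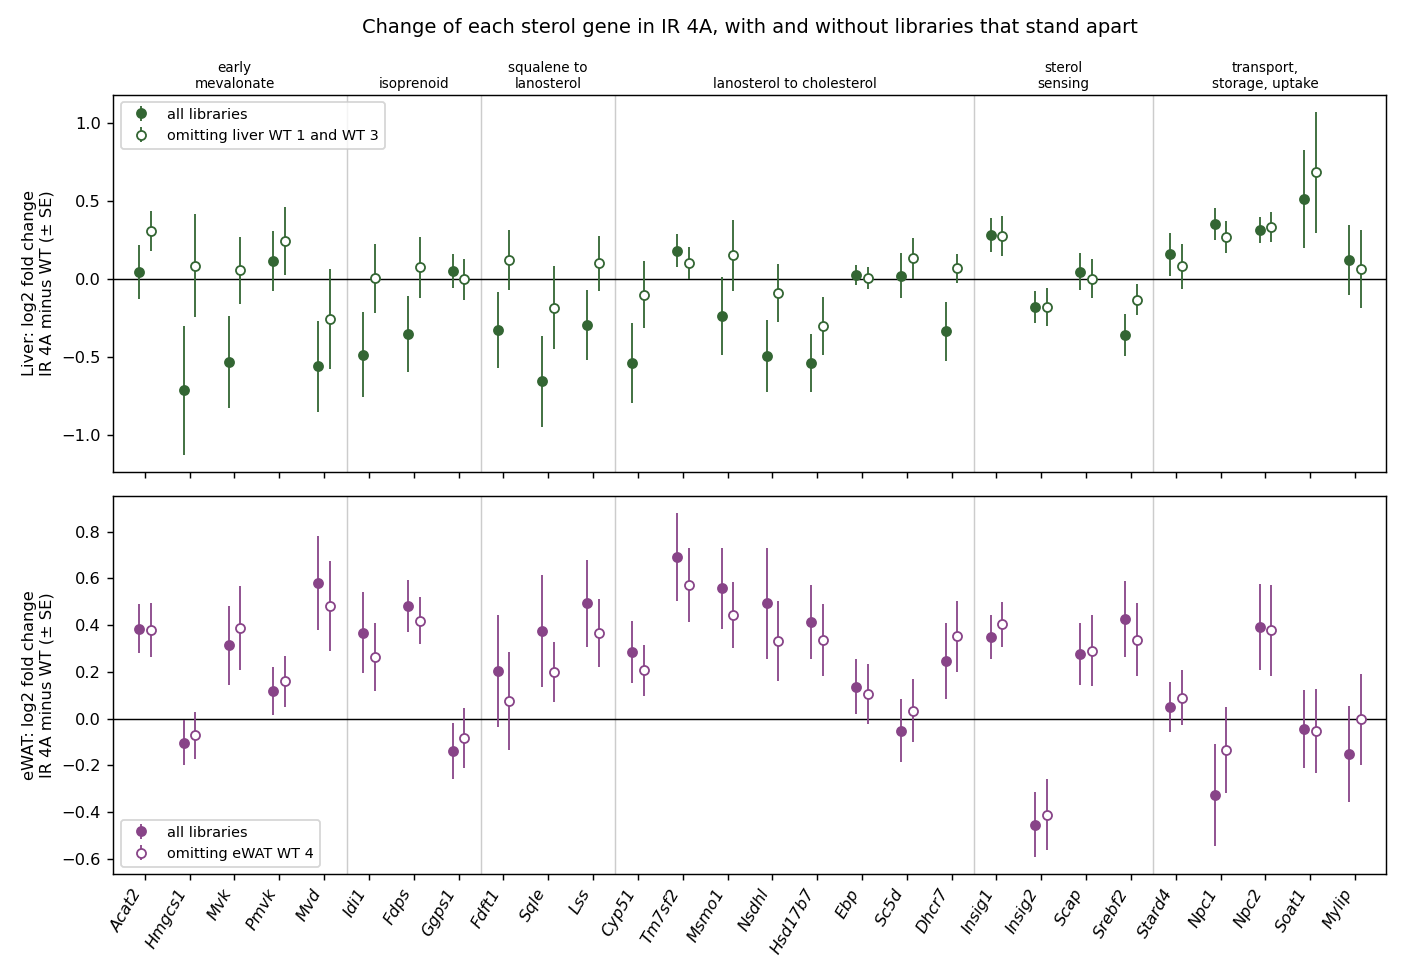
Log2 fold change, IR 4A minus WT, with its SE, of each sterol gene in liver (top) and eWAT (bottom), in pathway order, from all libraries (filled) and without liver WT 1 and WT 3 or eWAT WT 4 (open). In liver the enzymes' filled points lie mostly below 0 and move to around 0 when WT 1 and WT 3 are omitted, while in eWAT most enzymes stay above 0.

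The difference between the tissues was tested directly as the eWAT change minus the liver change in a fit of all 20 libraries. That fit shares its estimate of spread per gene between the tissues, although over all genes eWAT libraries spread more than liver libraries. The enzymes went the other way. Their median ratio of the highest to the lowest library was 2.42 in WT liver and 1.71 in WT eWAT. In IR 4A it was 1.51 in liver and 1.39 in eWAT. The fit also takes liver and eWAT libraries as independent, and whether they share mice is not known. The signs of the fold changes were negative in liver and positive in eWAT for 13 members, positive in both for 8, the reverse for 5 and negative in both for 2 (Hmgcs1 and Insig2). By edgeR, 0 of 28 members passed an adjusted p of 0.05 in either direction, when 0.735% of 14696 genes were higher and 1.67% lower. At an unadjusted p under 0.05, 13 members were higher and 1 was lower, against 7.51% and 14.6% of genes. The median difference was 0.50 over the members and -0.12 over all genes. Hsd17b7 came nearest to the threshold at 0.94 (SE 0.26, adjusted p = 0.0567), followed by Srebf2 at 0.77 (SE 0.22, adjusted p = 0.0658), Npc1 at -0.70 (SE 0.23, adjusted p = 0.0932) and Mvd at 1.13 (SE 0.38, adjusted p = 0.1), all by edgeR. Npc1 was the member whose difference was negative at that level, with a positive change in liver and a negative one in eWAT. Insig1, with a positive change in each tissue, had a difference of 0.052 (SE 0.15, adjusted p = 0.864) by edgeR.

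Without liver WT 1 and WT 3 this contrast shrank. The median difference over members fell from 0.50 to 0.13, and 3 members (Srebf2, Tm7sf2 and Hsd17b7) were higher at an unadjusted p under 0.05 (6.12% of genes) and Npc1 lower (12.7%). Hsd17b7 was then at 0.69, Srebf2 at 0.53, Npc1 at -0.62 and Hmgcs1 at -0.21, the last with its sign turned from 0.60. With eWAT WT 4 omitted too, the same 3 members were higher at that level (8.22% of genes) and 0 were lower (9.86%). Npc1 was then at -0.40 (SE 0.19, unadjusted p = 0.057 by edgeR), and the median over members was 0.207.

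Neighbouring genes of the pathway, from lists of other roles, had 0 genes past the threshold by edgeR in either tissue. Their counts at an unadjusted p under 0.05 are to be read against 8.6% higher and 9.48% lower of all liver genes, and 6.63% and 9.24% of all eWAT genes. Of 12 genes that process SREBP or degrade sterol enzymes, 7 had a positive change in liver (2 higher and 1 lower at that level) and 6 in eWAT (1 higher and 1 lower), shares near those of all genes. In liver the ubiquitin ligase gene Rnf145 was at 15.9 ± 3.28 CPM (WT) against 25.3 ± 5.38 CPM (IR 4A), a change of 0.68 (SE 0.17). Rnf139 and Syvn1, also ubiquitin ligases, had liver changes of 0.35 (SE 0.097) and -0.65 (SE 0.21). In eWAT the smallest p of the list was that of Erlin1, at -0.42 (SE 0.13), followed by Syvn1 at 0.38 (SE 0.16).

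Of 13 genes of intracellular sterol traffic, 5 had a positive change in each tissue, with 1 higher and 1 lower in liver and 2 higher and 2 lower in eWAT at an unadjusted p under 0.05. Lipa, the lysosomal lipase that frees the cholesterol exported by NPC proteins, had a liver change of 0.33 (SE 0.11). In eWAT Stard3, which moves sterol at late endosomes, had a change of 0.32 (SE 0.11) with no overlap of the groups, and Scarb2, a lysosomal membrane protein, of -0.62 (SE 0.23). Without eWAT WT 4, 3 genes of this list were higher in eWAT at an unadjusted p under 0.05 and 0 lower (6.26% and 5.41% of genes). Scarb2 thus no longer reached that level. Without liver WT 1 and WT 3, 1 was higher in liver and 0 lower (6.78% and 5.98% of genes).

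Of 11 tested genes of the oxysterol receptors and their targets, 7 had a positive change in liver (2 higher and 2 lower at an unadjusted p under 0.05) and 2 in eWAT (0 higher and 1 lower). The receptor genes themselves had the smallest p in liver and were negative, Nr1h3 at -0.21 (SE 0.068) and Nr1h2 at -0.17 (SE 0.063), the latter with no overlap of the groups. Abcg1, a cholesterol exporter, had a liver change of 0.54 (SE 0.22), and Abca1, a related exporter, an eWAT change of -0.46 (SE 0.19). Without liver WT 1 and WT 3, 0 of these genes were higher in liver and 2 lower at that unadjusted level (6.78% and 5.98% of genes). Without eWAT WT 4, 0 were higher and 0 lower in eWAT (6.26% and 5.41% of genes). Neither exporter value thus reached that level without those libraries. Of 18 genes that use the isoprenoid products for coenzyme Q, dolichol or prenylation, 11 were positive in liver and 9 in eWAT, with 1 higher and 1 lower at that level in each. Rabggtb, a subunit of the enzyme that prenylates Rab proteins, had a liver change of 0.32 (SE 0.078) with no overlap of the groups. Without liver WT 1 and WT 3, 1 of the 18 was higher in liver and 0 lower, and without eWAT WT 4 the eWAT counts were also 1 and 0.

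Fatty acid synthesis is driven by the related factor SREBP1. In liver 12 of 12 of its genes had a positive change (median 0.43), and 6 were higher at an unadjusted p under 0.05, when 8.6% of liver genes were. Without WT 1 and WT 3, 8 of 12 were positive (median 0.268) and 3 were higher at that level (6.78% of genes). Scd1, a fatty acid desaturase, was at 2351 ± 1140 CPM (WT) against 5372 ± 1294 CPM (IR 4A), a change of 1.19 (SE 0.32) that was 1.06 without WT 1 and WT 3. Scd2, a related desaturase, and Fasn, fatty acid synthase, had changes of 0.78 (SE 0.21) and 0.53 (SE 0.16), each with no overlap of the groups. In eWAT 3 of 12 had a positive change (median -0.48), and 5 of 12 did without WT 4 (median -0.0765). The difference between these genes and the sterol enzymes was not tested.

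Of 15 genes of the stress response of the endoplasmic reticulum, 13 had a negative change in liver (median -0.59), with 8 lower at an unadjusted p under 0.05 when 9.48% of liver genes were. Without WT 1 and WT 3, 14 of 15 were negative (median -0.287), 3 of them at that level (5.98% of genes), while 13 of 19 sterol enzymes were then positive. In eWAT 12 of 15 were positive (median 0.23, and 0.101 without WT 4). The part of that response in the enzyme values was not tested.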

How the data were processed

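Per the labels' protocols, stranded libraries of poly-A RNA were prepared at the same time and sequenced as read pairs. The tools were DESeq2 1.32.0 and Salmon 1.8.0, with genome build GRCm39, per the submitters' processing notes. Their settings, the use of strand among them, are not given in the sources used here. The deposited count tables hold the authors' estimated counts per gene, already whole numbers. The authors' deposited DESeq2 tables hold a mean signal, a log2 fold change with its SE on the log2 scale, and p-values, and were used only where named. All value columns of the tables used were matched to a sample. Repeated Ensembl identifiers were dropped (83 in liver, 208 in eWAT).

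The filter on low counts was edgeR's filterByExpr (version 4.0.16, at least 10 counts and a total of 15), and libraries were scaled by TMM. For each tissue, IR 4A and WT entered a quasi-likelihood F test of edgeR (two-sided), and p-values were Benjamini-Hochberg adjusted over every gene tested (R 4.3.3). The SE is the log2 fold change divided by the root of F. The tissues were compared in a fit of all 20 libraries over 14696 genes, whose CPM are on a scale of its own. Spread between libraries, as edgeR's biological coefficient of variation in common over all genes, was 0.187 for liver and 0.512 for eWAT. It is not the spread of a single gene, which differs from gene to gene. For Hmgcs1 the SE was 0.41 in liver and 0.096 in eWAT. No library copied another within sampling noise (lowest chi-square over its degrees of freedom, 11.8). The code was tested on simulated data.

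The members, lists and alternatives were chosen with earlier results of these data known. All 28 members are named whatever their result. Of the other lists, genes are named from among the 3 with the smallest p in that list and tissue. The settings tried besides were scaling by RLE or upper quartile, tests with no filter or with at least 1 CPM in at least 5 libraries, DESeq2 1.42.0, limma voom (3.58.1) with sample weights, a fit of all 20 libraries, the replicate number as a block, leaving out each library, and omitting liver WT 1 and WT 3. Omitting eWAT libraries high in sperm markers, and eWAT WT 4 with both liver libraries, was added after seeing the data, as were the values of the other lists without these libraries. Some sterol genes outside the 28 were not analysed here.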

Additional observations from a re-analysis of the deposited data

Results flagged for a closer look

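In groups of 5 libraries, a value whose gap to the nearest other library was large against the range of its group was marked by Dixon's test, which chance does in about 1 in 20 groups, and none was explained here. The test was run on each of 28 members in each of 4 groups, and on gene lists, so several marks would arise by chance alone. Among the members, Npc2 in liver WT 4 was low, at 29.3 CPM against 34.8 to 37.1 CPM in the other 4 WT libraries, and Ebp in liver IR 4A 1 was high, at 160.3 CPM against 143 to 148 CPM. Mvk in eWAT had a low WT 2, at 8.29 CPM against 14.2 to 16.4 CPM, and a high IR 4A 1, at 18.2 CPM against 16.4 to 16.9 CPM. Among the marker lists, given as mean log2 CPM, the epididymis level of eWAT WT 4 was 3.78 against 10.01 to 10.51 in the other WT libraries. The hepatocyte level of eWAT IR 4A 4 was 4.15 against -0.54 to 0.76, and the mesothelium level of eWAT IR 4A 3 was 3.28 against 4.44 to 4.87. In liver the macrophage level of WT 4 was 2.75 against 3.19 to 3.34, and the progenitor level of IR 4A 1 was 3.07 against 3.65 to 3.75.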

How the results depend on the processing

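Changes in the 5 transport genes in liver and in most eWAT enzymes kept their sign in every setting run, while 8 of the 13 negative liver enzyme values turned positive without WT 1 and WT 3. The spread between libraries limits what single genes can show, and low counts limit Soat1 in liver. The count of liver genes past the threshold was 1 by edgeR and became 426 by DESeq2, 4 by voom with sample weights, 49 in the fit of all 20 libraries and 0 without WT 1 and WT 3, and 0 to 143 when each library was left out, the highest without IR 4A 1. In eWAT it was 2 and became 1 by upper-quartile scaling, 0 with no filter, 1 with the stricter filter, 1204 by DESeq2, 78 by voom, 295 in the fit of all 20 libraries, 0 without the 4 libraries high in sperm markers, and 0 when each was left out in turn except IR 4A 3, which gave 6. For the difference between tissues it was 354 and became 1273 by DESeq2, 628 by voom, 96 without liver WT 1 and WT 3, 100 without these and eWAT WT 4, and 70 (without liver IR 4A 4) to 729 (without eWAT WT 5) when each was left out, with 710 without liver IR 4A 1. Same-numbered WT and IR 4A libraries of a tissue, with group means removed, correlated between -0.0723 and 0.077 in liver and -0.726 and 0.67 in eWAT. The numbers were not treated as pairs. Whether liver and eWAT libraries of the same number share a mouse is not known and was not tested. With a replicate block the counts were 3 for liver, 0 for eWAT and 0 for the tissue difference, and no member passed in these 3.

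Members past the threshold were 0 in each by edgeR. By DESeq2 they numbered 2 for liver (1.61% of genes higher and 1.82% lower) and 6 for eWAT (3.18% and 4.14%). For the tissue difference they numbered 3 by DESeq2 (Mvd, Hsd17b7 and Srebf2). Member counts for the difference are to be read against the counts of all genes given above for the same settings. With all libraries these came from 14696 genes. No excess of members over all genes is read from them. The fit of all 20 libraries called 1 in eWAT (Tm7sf2, adjusted p = 0.031). For the difference, RLE and upper-quartile scaling each called 1 and voom called 2, and leaving out each library gave 0 to 2 (2 without liver IR 4A 1 or eWAT WT 5, 1 without liver WT 2). The members' median in liver was 0.0702 without WT 1 and WT 3, and -0.079 without WT 3 alone. The count of members that differed between WT tissues, 26, moved by less than 1.5 times in every setting run, and Acat2 passed in 4 of them (without liver WT 3, without liver WT 1 and WT 3, without these and eWAT WT 4, and under upper-quartile scaling).

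Without liver WT 1 and WT 3 the liver sign turned for Hmgcs1 (0.086), Mvk (0.055), Idi1 (0.0044), Fdps (0.074), Ggps1 (-0.0028), Fdft1 (0.12), Lss (0.10), Msmo1 (0.15) and Dhcr7 (0.067), the tissue difference of Hmgcs1 to -0.21 and the WT tissue value of Srebf2 to 0.097. With eWAT WT 4 omitted too, the tissue difference turned for Hmgcs1 (-0.15), Fdft1 (-0.025) and Stard4 (0.014), and the WT tissue value of Srebf2 was 0.11. Under voom, Sc5d was -0.022 in liver and 0.042 in eWAT and Hmgcs1 0.019 in eWAT, the tissue difference was 0.052 for Pmvk, 0.012 for Sc5d, 0.060 for Stard4 and -0.11 for Npc2, and Srebf2 was 0.012 between WT tissues. Under upper-quartile scaling, Sc5d was 0.025 and Soat1 0.057 in eWAT, the tissue difference 0.079 for Pmvk and 0.0021 for Sc5d, and Srebf2 0.14 between WT tissues. The difference of Pmvk was 0.032 by RLE and by DESeq2, and Sc5d in eWAT was 0.019 without the libraries high in sperm markers. The cause was not tested. Leaving out each library gave ranges that cross 0 in liver for Acat2 (-0.064 to 0.23), Pmvk (-0.024 to 0.23), Ggps1 (-0.0051 to 0.11), Ebp (-0.0051 to 0.045), Sc5d (-0.083 to 0.14) and Scap (-0.019 to 0.12), in eWAT for Sc5d (-0.12 to 0.035) and Soat1 (-0.17 to 0.044), and for the difference for Pmvk (-0.14 to 0.12), Sc5d (-0.22 to 0.081), Insig1 (-0.0097 to 0.20), Stard4 (-0.20 to 0.00017) and Npc2 (-0.057 to 0.16). Omitting liver WT 1 and WT 3 leaves the eWAT fit as it is, and the fit of all 20 libraries is already the one used for both tissue contrasts.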
